A study of Mus musculus with 7899 samples.

Results

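Islets of female C57BL/6J mice on a standard diet were kept in medium with human maternal serum or human normal serum, and their β cells were then sequenced one at a time. The cells described here received the vehicle DMSO in the cultures that tested nifuroxazide, an inhibitor of STAT3 signalling. They were chosen by their labels alone, out of 7897 single cells in the series, and make up 4 libraries. Maternal serum with vehicle had 70 cells in 2 biological replicates of 37 and 33 cells, and normal serum with vehicle had 64 cells in 2 biological replicates of 33 and 31 cells.

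All 4 cultures held 20% human serum and DMSO for 4 days, so each had serum and none was serum-free. The donors of the sera, the age of the mice, the number of mice behind a replicate and whether both replicates of a group had the same serum are not given in the labels. The series follows β cells through gestation and after delivery, in knockouts, under a high-fat diet and in islet culture. Cells were labelled as β cells, sorted into plates and sequenced with Smart-seq3xpress, which reads along whole transcripts. Comparisons from other libraries are set beside that of these 4. They are maternal against normal serum in the vehicle arms of the cultures that tested A485, an inhibitor of the acetyltransferases p300 and CBP (100 and 93 cells), and the gestation group G14.5 (317 cells, 3 replicates) against the group G0 (72 and 35 cells in 2 replicates) in mice of the same strain, sex and diet, with no serum or drug in their labels.

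Prolactin and placental lactogen, the lactogens, bind the prolactin receptor on β cells, which activates the kinase JAK2 and the transcription factor STAT5. The inhibitors CISH and SOCS2 are induced by this route and feed back on it. In mouse islets, lactogens and pregnancy are known to raise the receptor itself, tryptophan hydroxylase for serotonin synthesis and β-cell division.

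Reads of all cells of a replicate were added up and compared with edgeR's quasi-likelihood test. A gene is called when its p, adjusted by Benjamini and Hochberg over all genes tested, is under 0.05. Levels are CPM, the reads of a gene scaled to a common total with TMM library sizes. Fold changes are log2 of maternal over normal serum, each with its standard error (SE). The maternal-serum libraries held 36181615 and 36853457 reads and the normal-serum libraries 40796202 and 28535901. The median cell had 1000224 and 1123383 reads with maternal serum and 1251492 and 909175 with normal serum. The insulin genes took 45.6% and 37.5% of reads with maternal serum and 47.7% and 49.1% with normal serum. Of 13 β-cell markers, 12 reached 10 CPM in each library, and Mafa, a factor of mature β cells, stayed below. Acinar, endothelial and stromal markers summed to at most 6.40 CPM. No cell had over 5% of its reads in glucagon, somatostatin or pancreatic polypeptide genes.

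Of 13481 genes tested, 80 were called higher with maternal serum (0.593%) and 58 lower (0.43%), 1.02% together. At least a 2-fold change was seen for 76 of the higher and 34 of the lower genes, and the median log2 fold change of all genes was -0.01. An unadjusted p under 0.05 in edgeR's test was seen for 1303 of the 13481 genes, both directions together. DESeq2 called 255 of all genes higher and 160 lower. Counts of list members given below are to be read against these backgrounds. The 6 higher genes with the smallest p in edgeR's test were Crispld2, Ivd, Cish, Lrrc8c, Prlr and Chgb, all members of the lactogen-responsive list. That list was assembled with earlier results of these data known, so their membership is not independent evidence. Genes of the secretory granule were among the lower ones. The share of higher genes among the calls depended on the method: limma on the deposited normalised values called 87 higher and 32 lower, a fit of the 2 groups alone 96 higher and 40 lower, and edgeR without maternal-serum replicate 2 called 69 higher and 28 lower. Without normal-serum replicate 1 the test called 67 genes and without normal-serum replicate 2 it called 77. Of the genes called with all libraries, 36 of the 80 higher and 16 of the 58 lower stayed called whichever 1 of the 4 libraries was left out.

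**Figure D1:**
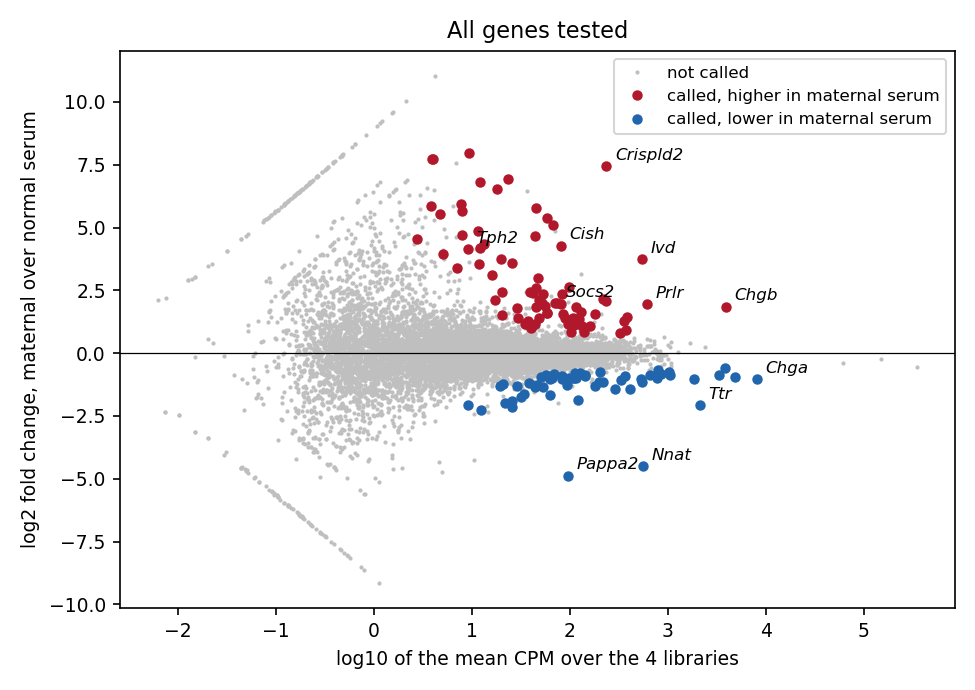
Log2 fold change of maternal over normal serum (vertical axis) against log10 of the mean CPM over the 4 vehicle libraries (horizontal axis), 1 point for each gene tested; genes at 0 in all 4 libraries are not drawn. The 80 called higher genes are red and the 58 called lower genes blue; Crispld2, Ivd, Prlr and Chgb stand high at substantial levels, and Pappa2 and Nnat stand lowest.

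The prolactin receptor gene rose. Prlr (ENSMUSG00000005268, GRCm38 chromosome 15, 10177238 to 10349180, plus strand) had 954 and 997 CPM with maternal serum, against 241 and 259.6 CPM with normal serum. Both maternal-serum libraries were far above both normal-serum libraries, and the replicates lay close together. The log2 fold change was 1.96 (SE 0.14, adjusted p 7.33e-06), higher in 2 of 2 libraries. Every cell of all 4 libraries had a Prlr read, so the change was one of level: the median cell had 748 and 979 CPM with maternal serum and 155.5 and 208 CPM with normal serum.

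Prlr was the only called member among the receptors, kinases and STAT genes of this signalling route, where 1 of 15 tested members was called higher and none lower, with a median log2 fold change of -0.07. Upward, 2 members passed an unadjusted p of 0.05, and downward 1, and DESeq2 also called Il6st, the shared receptor chain of the interleukin-6 family. Il6st had 37.3 and 99.9 CPM with maternal serum and 27.02 and 24.8 CPM with normal serum (log2 fold change 1.40, adjusted p 0.088). Stat3, the factor whose signalling nifuroxazide inhibits, had 137.004 and 157.2 CPM with maternal serum and 134.8 and 154.5 CPM with normal serum (log2 fold change 0.02, SE 0.17, adjusted p 0.991). Stat5b had 29.9 and 30.7 CPM with maternal serum and 28.4 and 35.5 CPM with normal serum (-0.07, SE 0.25, adjusted p 0.974). Stat5a, its close relative, had 12.8 and 31.9 CPM with maternal serum and 9.55 and 17.3 CPM with normal serum (0.74, SE 0.42, adjusted p 0.622). Ghr, the growth hormone receptor, had 234 and 181 CPM with maternal serum and 279 and 217 CPM with normal serum (-0.26, adjusted p 0.744). The groups overlapped for all of these except Il6st.

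Both feedback inhibitors that lactogens induce rose. Cish (ENSMUSG00000032578, chromosome 9, 107296026 to 107302784, plus strand) had 166 and 143.4 CPM with maternal serum, against 9.70 and 6.16 CPM with normal serum. Its log2 fold change was 4.28 (SE 0.26, adjusted p 2.18e-06), higher in 2 of 2 libraries. Socs2 (chromosome 10, 95385362 to 95417180, minus strand) had 108.9 and 131.2 CPM with maternal serum, against 24.96 and 35.4 CPM with normal serum (1.99, SE 0.23, adjusted p 0.000642). The gap between the groups was many times that between replicates for both genes. Of 16 feedback inhibitors tested, these 2 were called higher and none lower, and DESeq2 called the same 2; the median was -0.03. Socs3, which STAT3 is known to induce, had 19.2 and 20.4 CPM with maternal serum and 6.90 and 8.01 CPM with normal serum (1.41, SE 0.46, adjusted p 0.253). Among 13 STAT3-responsive and acute-phase genes, 0 were called higher by edgeR, 1 passed an unadjusted p of 0.05 upward and DESeq2 called 0 higher, with a median of 0.26. Il1r1, the interleukin-1 receptor, was the 1 called lower, at 220 and 223 CPM with maternal serum and 688 and 508 CPM with normal serum (-1.43, SE 0.20, adjusted p 0.00181).

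Cish was read in all 37 and all 33 cells of the maternal-serum libraries, and in 30 of 33 and 25 of 31 cells of the normal-serum libraries. When each cell was thinned to 250000 reads, which left out no cell, it was read in 37 of 37 and 32 of 33 cells with maternal serum and in 22 of 33 and 16 of 31 cells with normal serum. The median cell had 141.9 and 161 CPM with maternal serum and 4.78 and 3.90 CPM with normal serum. The rise was thus spread over the cells of both maternal-serum libraries rather than carried by a few.

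**Figure D2:**
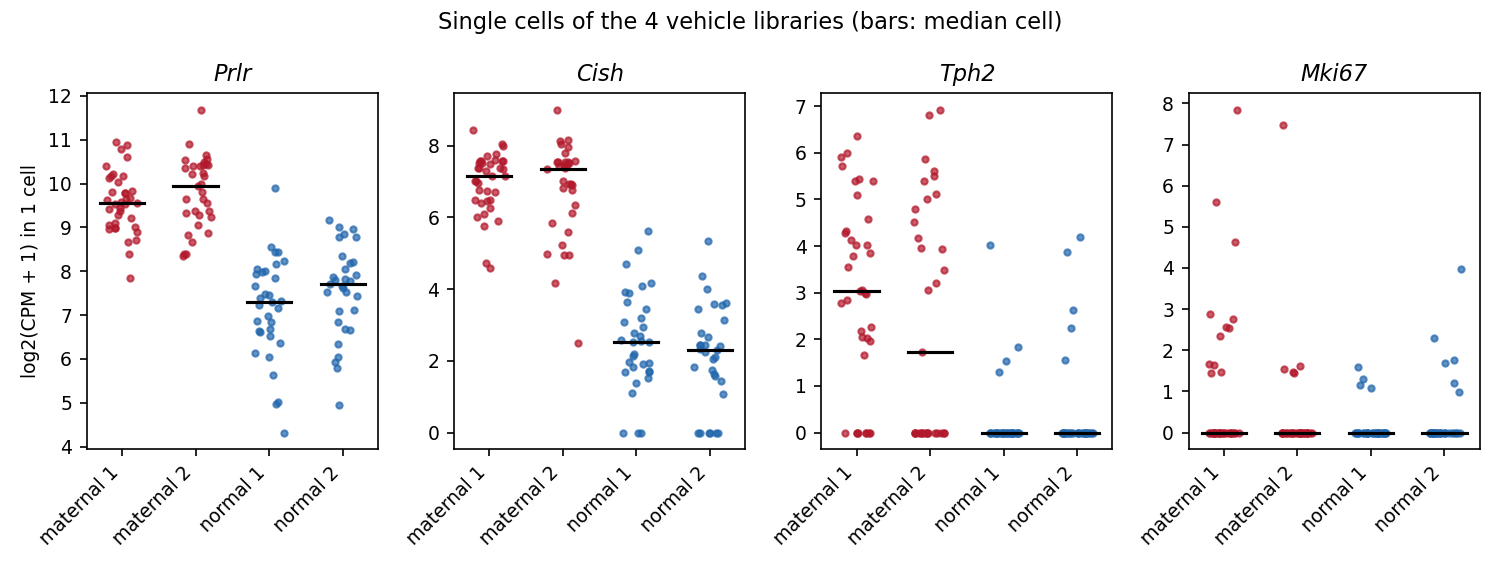
Log2(CPM + 1) of Prlr, Cish, Tph2 and Mki67 in single cells (points) of the 2 maternal-serum and the 2 normal-serum vehicle libraries, with the median cell of each library as a bar. Prlr and Cish are shifted over nearly the whole maternal-serum population, Tph2 is read in a part of it, and Mki67 is high in 1 cell of each maternal-serum library.

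Lactogen-responsive and pregnancy-associated islet genes formed the list with the most calls. Of 22 members tested, 12 were called higher and none lower, against 0.593% and 0.43% of all genes, and the median log2 fold change was 1.98 against -0.01. DESeq2 called 15 higher and none lower. This list was assembled with earlier results of these data known and is not independent evidence of its direction. The 12 were Crispld2, Lrrc8c, Sftpd, Neb, Cish, Cldn8, Tph2, Ivd, Matn2, Socs2, Prlr and Chgb.

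Crispld2, a secreted protein (chromosome 8, 119992438 to 120052793, plus strand), had 419 and 527 CPM with maternal serum, against 2.33 and 3.21 CPM with normal serum. Its log2 fold change of 7.43 (SE 0.25, adjusted p 3.00e-09) had the smallest p of all genes tested. Lrrc8c, part of the anion channels that respond to cell volume, had 40.0 and 32.7 CPM with maternal serum, against 0.299 and 0.493 CPM with normal serum (6.54, SE 0.45, adjusted p 5.48e-06). Sftpd, surfactant protein D, had 23.7 and 20.9 CPM with maternal serum, against 0.478 and 1.07 CPM with normal serum (4.86, SE 0.61, adjusted p 0.00111); 1 cell held 50.4% of its reads in 1 maternal-serum library. Neb, the giant muscle protein nebulin, had 53.5 and 116.7 CPM with maternal serum, against 3.13 and 3.53 CPM with normal serum (4.68, SE 0.47, adjusted p 0.000212). All 4 were at 3.53 CPM or less in both normal-serum libraries, although some of those cells had reads: Crispld2 was read in 25 of 33 and 21 of 31 cells with normal serum and Neb in 21 of 33 and 12 of 31.

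Ivd, Cldn8 and Matn2 fall outside the rule for named genes and were chosen after their values were seen. Il6st, Ghr, Socs3, Ddc and Fmo1 also fall outside that rule and were picked with earlier results of these data known. Ivd, an enzyme of leucine breakdown in mitochondria (chromosome 2, 118861954 to 118882909, plus strand), had 1028 and 1025 CPM with maternal serum, against 64.9 and 90.2 CPM with normal serum (3.73, SE 0.21, adjusted p 1.16e-06). It was read in every cell of all 4 libraries. Cldn8, a claudin of tight junctions, had 32.8 and 13.3 CPM with maternal serum, against 1.10 and 1.44 CPM with normal serum (4.18, adjusted p 0.00248). Without maternal-serum replicate 1 its adjusted p was 0.0646. Matn2, a matrix protein, had 68.2 and 65.99 CPM with maternal serum, against 9.55 and 15.2 CPM with normal serum (2.44, adjusted p 0.00222). Among the members that were not called was Fmo1, a flavin monooxygenase, at 105.1 and 117.6 CPM with maternal serum and 38.5 and 66.1 CPM with normal serum (1.09, adjusted p 0.0595).

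**Figure D3:**
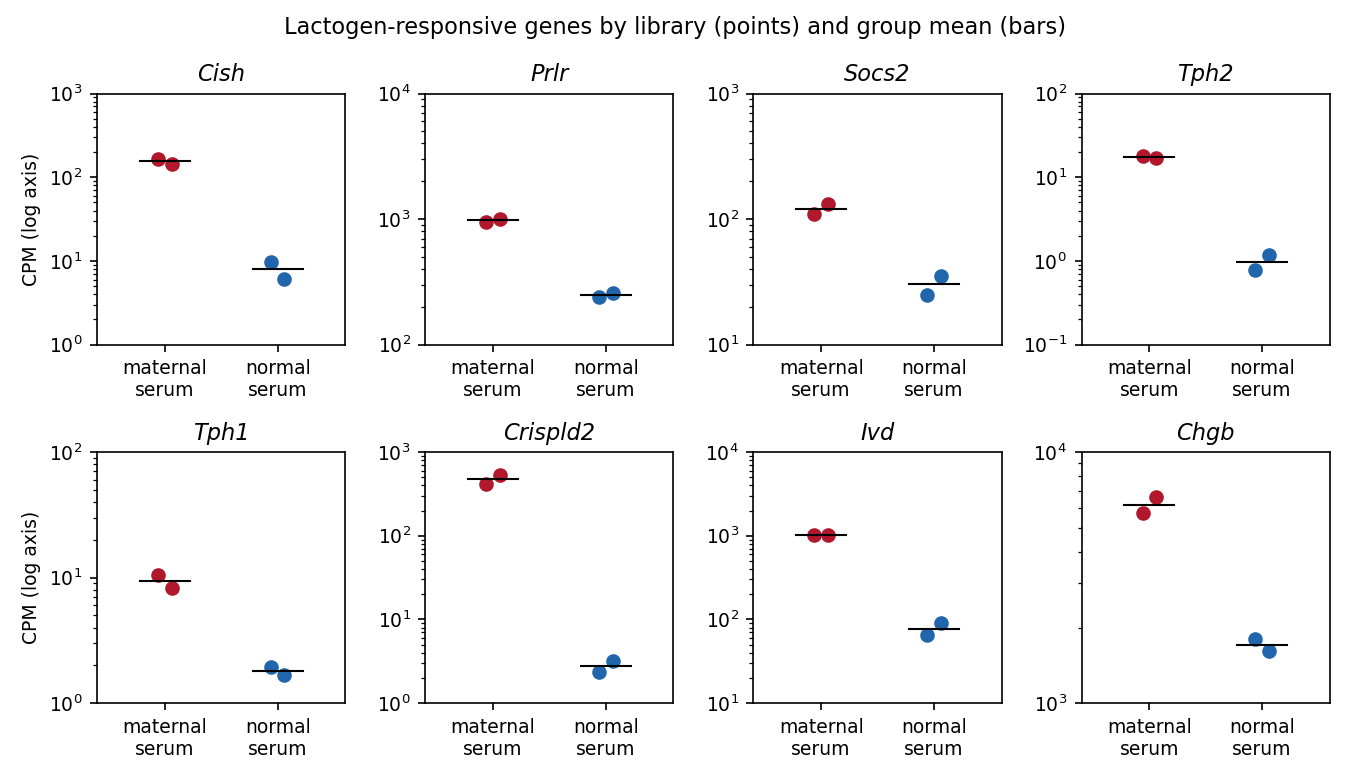
CPM on a log axis of 8 lactogen-responsive genes in the 2 maternal-serum libraries (red) and the 2 normal-serum libraries (blue), with the group mean as a bar. No group overlaps the other in any panel; Tph1 did not pass the test (adjusted p 0.18).

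STAT5 is known to bind the motif TTCNNNGAA, which reads the same on both strands. It was looked for in the 250 bases before each RefSeq start (GRCm38.p6). It stood in the window of at least 1 start for 5 of 58 called higher genes with a window (8.62%), for 4 of 39 called lower genes with a window (10.3%) and for 2197 of 27025 genes in all (8.13%), so the called genes were close to the background. The 5 higher genes were Prlr, Ivd, Aldh9a1, Fgl2 and Isg20, and the 4 lower ones Hap1, Scg2, Scg5 and Tnfrsf9. The windows of Prlr and Ivd are shown because both genes rose and both hold the motif, in capitals.
Prlr: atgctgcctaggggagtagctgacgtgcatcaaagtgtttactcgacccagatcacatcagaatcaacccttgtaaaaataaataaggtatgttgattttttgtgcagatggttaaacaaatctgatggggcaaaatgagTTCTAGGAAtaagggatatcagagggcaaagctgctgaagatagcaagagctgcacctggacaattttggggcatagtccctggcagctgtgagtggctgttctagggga
Ivd: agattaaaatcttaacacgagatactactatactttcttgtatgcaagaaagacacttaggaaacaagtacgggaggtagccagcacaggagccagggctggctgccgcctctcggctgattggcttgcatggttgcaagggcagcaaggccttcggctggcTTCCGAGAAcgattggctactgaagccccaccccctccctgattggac
The Prlr stretch is chr15:10223656-10223905 on the plus strand, before 1 of the 3 RefSeq starts of the gene, and the motif begins 110 bases before that start. The Ivd stretch is chr2:118861744-118861953 on the plus strand and stops where the first annotated exon begins, and the motif begins 88 bases before the RefSeq start. The window before the single RefSeq start of Cish lies wholly within an annotated exon, so it is not printed; it held no match to these letters. A match or its lack describes the letters of these windows and no binding.

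Serotonin synthesis was represented by 2 tryptophan hydroxylases. Tph2 (ENSMUSG00000006764, chromosome 10, 115078641 to 115185022, minus strand), the neuronal form of the rate-limiting enzyme, had 17.9 and 16.9 CPM with maternal serum, against 0.776 and 1.19 CPM with normal serum. Its log2 fold change was 4.15 (SE 0.67, adjusted p 0.00751); without normal-serum replicate 1 it was 3.87 with an adjusted p of 0.0996. Tph2 was read in 29 of 37 and 17 of 33 cells with maternal serum, and in 4 of 33 and 5 of 31 cells with normal serum. Thinned to 250000 reads a cell, it was read in 25 of 37 and 16 of 33 cells with maternal serum and in 3 of 33 and 3 of 31 cells with normal serum. More cells thus carried Tph2 reads in both maternal-serum libraries than in either normal-serum library.

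Tph1, the form outside the brain and the one best known from islets in mouse pregnancy, had 10.6 and 8.33 CPM with maternal serum and 1.94 and 1.68 CPM with normal serum (2.38, SE 0.70, adjusted p 0.18). It did not pass edgeR's test, while DESeq2 called it. A single cell held 36.3% and 68.6% of its reads in the maternal-serum libraries. Of 12 serotonin genes tested, Tph2 was called higher and Maob, the monoamine oxidase that breaks down amines, was called lower, and the median was 0.05. Maob had 152.6 and 154.2 CPM with maternal serum, against 255 and 263 CPM with normal serum (-0.75, SE 0.15, adjusted p 0.0245). Its adjusted p was between 0.0816 and 0.167 when any 1 library was left out. Ddc, the second enzyme of the synthesis, had 498 and 551 CPM with maternal serum and 504 and 560 CPM with normal serum (-0.02, adjusted p 0.991).

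Mki67, a marker of dividing cells, had 11.2 and 7.92 CPM with maternal serum and 0.209 and 0.904 CPM with normal serum (4.11, SE 1.09, adjusted p 0.121). In each maternal-serum library 1 cell, and with normal serum none, had over 50 CPM of Mki67, and that cell held 70.8% and 97.1% of the library's Mki67 reads. The same cell held 85.4% and 94.7% of the reads of Top2a, a topoisomerase of dividing cells, and 91.97% and 94.1% of those of Cdk1, the mitotic kinase. For other genes of dividing cells that cell's share varied: it held 22.6% and 97.7% of the reads of Pbk, a mitotic kinase, and 96.1% and 35% of those of Ube2c, of mitotic protein breakdown. It held 3.801% and 5.26% of the Cish reads and 4.03% and 6.48% of the Prlr reads. Of 27 cell cycle genes tested, Myc was called higher and none lower, with a median of 1.17. Upward, 13 passed an unadjusted p of 0.05 and DESeq2 called 9.

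Without the 2 Mki67-high cells of the nifuroxazide set, an alternative added after seeing the data, 73 genes were called higher and 50 lower. The 7 higher genes that lost their call were Asf1b, Ube2c, Pbk, Cenpm, Stmn1, Knstrn and Hirip3. The first 6 are known from DNA replication, chromatin or mitosis or from dividing cells. Knstrn (chromosome 2, 118814003 to 118853957) also lies between the called higher genes Disp2 (118779719 to 118811293) and Ivd (118861954 to 118882909), all on the plus strand. Whether these neighbours rose separately was not tested. Prlr, Cish and Tph2 had log2 fold changes of 1.96, 4.28 and 4.17 without the 2 Mki67-high cells. Myc, a transcription factor of cell growth, had 18.8 and 32.2 CPM with maternal serum, against 1.16 and 1.31 CPM with normal serum (4.36, SE 0.48, adjusted p 0.000383). The dividing cell held 0% and 8.83% of its reads, and Myc had a log2 fold change of 4.35 without it.

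The other genes with the largest rises were of mixed kinds, and several rested mainly on 1 maternal-serum library. Igfbp5, which binds insulin-like growth factors, had 146.2 and 82.98 CPM with maternal serum, against 2.45 and 3.12 CPM with normal serum (5.37, SE 0.45, adjusted p 3.90e-05). Fabp5, a fatty acid carrier, had 55.7 and 205 CPM with maternal serum, against 4.30 and 3.29 CPM with normal serum (5.10, SE 0.66, adjusted p 0.0012). Both stayed called when any 1 library was left out. Penk, the precursor of enkephalins, had 89.1 and 3.12 CPM with maternal serum, against 0.418 and 0.329 CPM with normal serum (6.92, SE 1.38, adjusted p 0.0286). Scn4a, a sodium channel, had 3.38 and 45.3 CPM with maternal serum, against 0.119 and 0.329 CPM with normal serum (6.79, SE 1.26, adjusted p 0.0224). Dlk1, an imprinted membrane protein, had 3.65 and 173 CPM with maternal serum, against 1.88 and 1.27 CPM with normal serum (5.79, SE 1.26, adjusted p 0.0488). For Penk, Scn4a and Dlk1, 1 maternal-serum library was far above the other. In that higher library 1 cell held 68.9% of the Penk reads and 97.5% of the Dlk1 reads, but 26.7% of the Scn4a reads. Without the higher library the adjusted p was 0.668 for Penk, 0.788 for Scn4a and 0.977 for Dlk1, and leaving out either normal-serum library also ended each call, with adjusted p between 0.129 and 0.334.

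For 10 of the 80 higher genes, 1 cell held over 50% of the reads of a maternal-serum library: Asf1b, Cenpm, Dlk1, Mt2, Pbk, Penk, Ppp1r17, Sftpd, Stmn1 and Ube2c. The same count in the normal-serum libraries was 0 for the 58 lower genes. The median of this largest share was 16.9% for the higher and 10.8% for the lower genes. A read in every cell of all 4 libraries was seen for 16 higher and 29 lower genes.

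**Figure D4:**
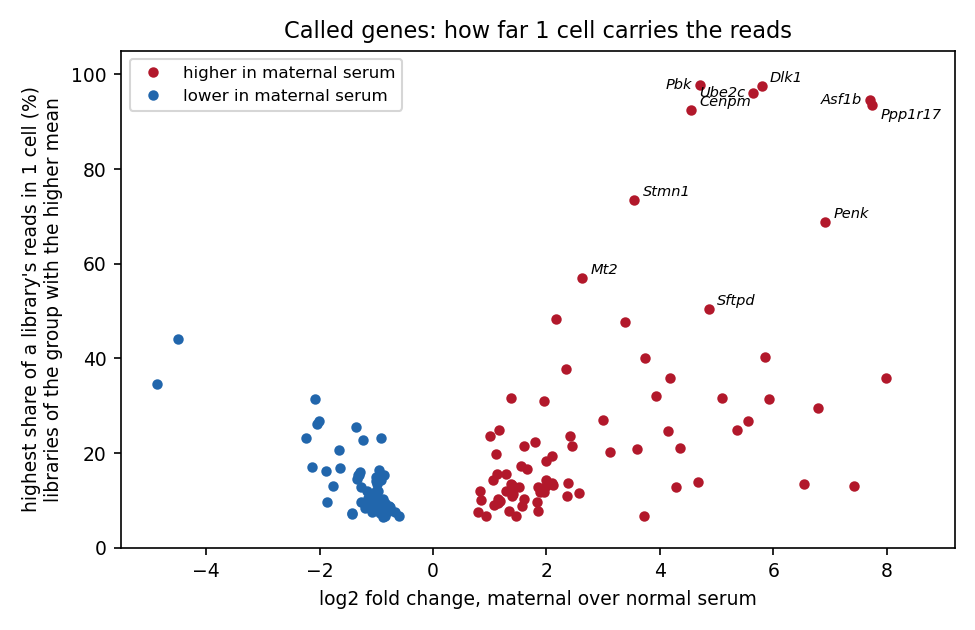
Share of a library's reads held by its top cell (vertical axis, percent, the higher of the 2 libraries of the group with the higher mean) against log2 fold change of maternal over normal serum, for all called genes. The 10 named genes above 50% are all higher in maternal serum (red); the lower genes (blue) stay below 50%.

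Genes of the secretory granule moved in both directions. Chgb, chromogranin B (chromosome 2, 132781278 to 132795079, plus strand), had 5743 and 6605 CPM with maternal serum, against 1802 and 1611 CPM with normal serum (1.86, SE 0.16, adjusted p 3.90e-05). Chga, chromogranin A (chromosome 12, 102554969 to 102565028, plus strand), had 6163 and 4616 CPM with maternal serum, against 11355 and 10893 CPM with normal serum (-1.05, SE 0.13, adjusted p 0.00104). Scg2, secretogranin II, had 3116 and 3505 CPM with maternal serum, against 6099 and 6599 CPM with normal serum (-0.94, SE 0.11, adjusted p 0.00091). Scg5, a chaperone of the convertase PC2, had 747 and 768 CPM with maternal serum, against 1465 and 1299 CPM with normal serum (-0.87, SE 0.13, adjusted p 0.00328). Per kilobase, Chga averaged 2864 RPKM with maternal serum and 5911 RPKM with normal serum, while Chgb averaged 2253 RPKM with maternal serum and 623 RPKM with normal serum. Chga thus stood well above Chgb with normal serum and closer to it with maternal serum. Of 23 exocytosis and excitability genes tested, Chgb was called higher and these 3 were called lower, with a median of -0.21.

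Among 24 genes of β-cell identity and glucose sensing, 4 were called lower and 0 higher, with a median of -0.40; 1 passed an unadjusted p of 0.05 upward and 10 downward, and DESeq2 called 1 higher and 5 lower. Cpe, the carboxypeptidase of prohormone processing, had 2291 and 2407 CPM with maternal serum, against 4252 and 4375 CPM with normal serum (-0.88, SE 0.11, adjusted p 0.00104). Pcsk2, the convertase PC2, had 3175 and 2994 CPM with maternal serum, against 4904 and 4416 CPM with normal serum (-0.60, SE 0.11, adjusted p 0.0221). Slc30a8, the zinc transporter of insulin granules, had 510.1 and 429.7 CPM with maternal serum, against 788 and 913 CPM with normal serum (-0.86, SE 0.15, adjusted p 0.0141). Ucn3, urocortin 3, a marker of mature β cells, had 649 and 457 CPM with maternal serum, against 1044 and 991 CPM with normal serum (-0.88, SE 0.16, adjusted p 0.0169). Cpe stayed called when any 1 library was left out. Without maternal-serum replicate 2 the other 3 were not called, with adjusted p of 0.0902 for Pcsk2, 0.0902 for Slc30a8 and 0.0877 for Ucn3. Without normal-serum replicate 1 the adjusted p was 0.157 for Pcsk2 and 0.104 for Ucn3, and without normal-serum replicate 2 it was 0.132 for Slc30a8 and 0.0584 for Ucn3.

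The insulin genes did not pass the test. Ins2 had 336176 and 233592 CPM with maternal serum and 416341 and 412965 CPM with normal serum (-0.54, SE 0.15, adjusted p 0.126). Ins1 had 161707 and 117724 CPM with maternal serum and 164837 and 162769 CPM with normal serum (-0.23, SE 0.15, adjusted p 0.677). With TMM library sizes both maternal-serum libraries were below both normal-serum libraries for each gene, and maternal-serum replicate 2 was lowest. On plain library sizes Ins1 had 148266 and 125762 CPM with maternal serum and 135334 and 138811 CPM with normal serum, so the groups overlapped. Ins2 had 308233 and 249542 CPM with maternal serum and 341824 and 352180 CPM with normal serum on plain library sizes, without overlap. These 2 genes are near-identical over much of their length, and the labels do not say how reads that match both were counted. Mafa was low in all 4 libraries, at 2.56 and 3.71 CPM with maternal serum and 3.28 and 7.15 CPM with normal serum (-0.73, adjusted p 0.832).

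Genes for protein entry into the endoplasmic reticulum and for the unfolded protein response had positive medians with few calls. None of 22 entry genes was called by edgeR, 6 passed an unadjusted p of 0.05 upward and DESeq2 called 4 higher; the median was 0.30. Of 22 unfolded protein response genes, 1 was called higher and none lower, 14 passed an unadjusted p of 0.05 upward, and the median was 0.47. The called gene was Ern1, the sensor IRE1, with 254 and 506 CPM with maternal serum, against 98.2 and 80.3 CPM with normal serum (2.09, SE 0.26, adjusted p 0.00104). It stayed called when any 1 library was left out.

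Metabolic lists held single calls. Of 26 sterol and fatty acid synthesis genes, 2 were called lower and none higher, with a median of -0.49; no member passed an unadjusted p of 0.05 upward and 8 did downward, and DESeq2 called none higher and 4 lower. Scd2, a stearoyl-CoA desaturase, had 32.3 and 27.8 CPM with maternal serum, against 77.2 and 75.7 CPM with normal serum (-1.35, SE 0.23, adjusted p 0.01). Txnip, a glucose-induced inhibitor of thioredoxin, had 397 and 287 CPM with maternal serum, against 804 and 710.1 CPM with normal serum (-1.15, SE 0.18, adjusted p 0.00591). It was the 1 call among 20 glycolysis and ChREBP genes, whose median was 0.11. Abca1, a cholesterol exporter (-0.99), Cbs, of cysteine synthesis (-0.97), and Tfrc, the transferrin receptor (-1.0), also fell. Each of Scd2, Abca1, Cbs, Tfrc and Txnip lost its call without normal-serum replicate 1, with adjusted p of 0.0722, 0.295, 0.0717, 0.126 and 0.061 in that order. Abca1, Cbs and Tfrc also lost it without each of the other 3 libraries, with adjusted p between 0.0618 and 0.364. Scd2 lost it without maternal-serum replicate 2 (0.0775) and normal-serum replicate 2 (0.0559).

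Mt1 and Mt2, metallothioneins that bind zinc and copper and respond to glucocorticoids, rose with wide spread. Mt1 had 220.3 and 493 CPM with maternal serum, against 110.2 and 48.7 CPM with normal serum (2.17, SE 0.46, adjusted p 0.0405). Mt2 had 83.05 and 258 CPM with maternal serum, against 37.9 and 17.2 CPM with normal serum (2.63, SE 0.55, adjusted p 0.0377). Maternal-serum replicate 2 was the highest for both; without it the adjusted p was 0.191 for Mt1 and 0.193 for Mt2, and without normal-serum replicate 2 it was 0.307 for both; for Mt2 it was 0.0639 without normal-serum replicate 1. DESeq2 called neither. They were the 2 calls among 14 glucocorticoid-responsive genes, with a median of 0.14. Cited2, a partner of p300 and CBP, was the 1 call among 21 genes of histone acetylation and acetyl-CoA supply (1.18, adjusted p 0.0242), and was not called without any 1 of the 4 libraries, with adjusted p between 0.0732 and 0.228. Acss2, which makes acetyl-CoA from acetate, had 30.4 and 28.1 CPM with maternal serum and 30.2 and 28.4 CPM with normal serum (0.00, SE 0.25, adjusted p 1).

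The remaining lists held few calls. Of 8 tested genes that mature β cells keep low, Myc was called higher and none lower (median 1.11). Of 22 amino acid response and one-carbon genes, Cbs was called lower; edgeR called 0 higher, 2 passed an unadjusted p of 0.05 upward and 6 downward, and DESeq2 called 1 higher and 4 lower (median -0.29). Of 19 lipid uptake and oxidation genes, Fabp5 was called higher and Abca1 lower (median -0.14). Of 19 insulin and insulin-like growth factor signalling genes, Igfbp5 was called higher and none lower (median 0.02). Of 21 antioxidant and metal response genes, Mt1 and Mt2 were called higher and Tfrc lower (median 0.22). None of 24 oxidative phosphorylation, 22 immediate-early and heat-shock, 20 interferon and antigen presentation and 13 steroid and thyroid hormone genes was called by edgeR. Their medians were 0.15, 0.23, -0.01 and 0.40. In the same order 2, 7, 1 and 3 members passed an unadjusted p of 0.05 upward and 0, 0, 1 and 2 downward, and DESeq2 called 1, 1, 0 and 1 higher and none lower.

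The genes that fell most were not members of the lactogen lists. Pappa2, a protease that frees insulin-like growth factors from their binding proteins (chromosome 1, 158711727 to 158980490, minus strand), had 8.501 and 4.17 CPM with maternal serum, against 207 and 164 CPM with normal serum (-4.87, SE 0.64, adjusted p 0.00129). Nnat, neuronatin, an imprinted protein of the endoplasmic reticulum (chromosome 2, 157560078 to 157562522, plus strand), had 66.2 and 29.4 CPM with maternal serum, against 248 and 1909 CPM with normal serum (-4.50, SE 0.71, adjusted p 0.00572). Both stayed called when any 1 library was left out, but without normal-serum replicate 2 the Nnat value was -2.38. Gstm1, a glutathione transferase (chromosome 3, 108012255 to 108017973, minus strand), had 58.4 and 45.9 CPM with maternal serum, against 184 and 197 CPM with normal serum (-1.87, SE 0.16, adjusted p 5.28e-05). Sh2d5, an adaptor protein, had 11.2 and 8.03 CPM with maternal serum, against 44.8 and 39.1 CPM with normal serum (-2.13, SE 0.30, adjusted p 0.00237).

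Adam32 (-2.25), Kctd12 (-2.0) and Cd59a (-1.89) fell as well, at 2.92 to 12.1 CPM with maternal serum and 16.97 to 53.8 CPM with normal serum. Leaving out any 1 of the 4 libraries ended the call of Kctd12, with adjusted p between 0.0843 and 0.173. Adam32 was not called without maternal-serum replicate 2 (0.163) or normal-serum replicate 1 (0.204) or 2 (0.0514). Cd59a was not called without maternal-serum replicate 1 (0.0847) or 2 (0.0538) or normal-serum replicate 1 (0.295).

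A pair of the lower genes are markers of other cell types. Ttr, transthyretin, which α cells express highly, had 882 and 766 CPM with maternal serum, against 4810 and 2140 CPM with normal serum (-2.08, SE 0.28, adjusted p 0.00144). Without normal-serum replicate 1 its log2 fold change was -1.38, with an adjusted p of 0.00234. The 9 α-cell markers summed to 1485 and 1307 CPM with maternal serum and 4466 and 2396 CPM with normal serum, on plain library sizes, and 4 of them reached 10 CPM in each library. Ttr made most of that difference: Gcg, the glucagon gene, had 315 and 134.9 CPM with maternal serum and 99.6 and 229.7 CPM with normal serum, and Pou3f4 was at 0 in maternal-serum replicate 1. C1qa, a complement subunit known from macrophages, had 28.5 and 32.4 CPM with maternal serum, against 98.3 and 93.03 CPM with normal serum (-1.65, SE 0.19, adjusted p 0.000626). It alone of 8 immune markers in the table reached 10 CPM. Ptprc, C1qb and C1qc, which define leukocytes or the same complement complex, were at 0 in all 4 libraries. Both called genes were read widely over the sorted cells. Ttr was read in every cell of all 4 libraries. C1qa was read in 33 of 37 and 28 of 33 cells with maternal serum and in 32 of 33 and 31 of 31 cells with normal serum.

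Ductal markers summed to 554 and 1089 CPM with maternal serum and 596 and 491 CPM with normal serum; Spp1 was at 495 CPM in maternal-serum replicate 2, and Cftr was at 0 in all 4. Delta-cell markers, led by Sst, summed to 192 and 180.0 CPM with maternal serum and 268 and 244 CPM with normal serum, so both maternal-serum libraries were lower, and Sstr1 was at 0 in all 4. The pancreatic polypeptide and Pyy genes summed to 199 and 168 CPM with maternal serum and 174 and 444 CPM with normal serum. In single cells of the 4 libraries, the highest share of reads in glucagon, somatostatin or pancreatic polypeptide genes was 0.374%. Whether other cell types, or RNA from them, had a part in the calls was not tested.

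Maternal and normal serum had also been given with DMSO in the cultures that tested A485, in other libraries. There edgeR called 89 of 13554 genes (0.657%), 70 higher (0.516%) and 19 lower (0.14%). Without maternal-serum replicate 1 of that set it called 207 genes, without maternal-serum replicate 2 it called 55 and without normal-serum replicate 1 it called 43. That last library held 13273435 reads in 36 cells, the fewest of the 4, and 3 of its cells had over 50 CPM of Mki67. Delta-cell markers summed to 35.6 and 14.9 CPM with maternal serum and 2471 and 476 CPM with normal serum in the A485 set, so another cell type's genes moved with its serum groups; their part in its calls was not tested.

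Of the 80 genes called higher with maternal serum in the nifuroxazide set, 33 were called higher in the A485 set, which is 41.25% of the 80 and 47.1% of the 70. None was called lower there, 72 had a positive log2 fold change, and their median was 1.53. The shared genes include Prlr, Cish, Socs2, Crispld2, Lrrc8c, Sftpd, Neb, Ivd, Cldn8, Chgb, Igfbp5, Fabp5 and Ern1. Cish had 152.9 and 132.6 CPM with maternal serum and 13.1 and 6.495 CPM with normal serum in the A485 set (3.92, SE 0.28, adjusted p 6.61e-05). Prlr had 931 and 778 CPM with maternal serum and 427 and 425 CPM with normal serum there (1.01, SE 0.15, adjusted p 0.0139). Tph1 had 12.8 and 5.48 CPM with maternal serum and 0.299 and 0.120 CPM with normal serum there (5.57, adjusted p 0.0364), and Tph2 had 7.71 and 15.996 CPM with maternal serum and 1.70 and 2.99 CPM with normal serum (2.32, adjusted p 0.2). Each hydroxylase was thus called in 1 set, and their differences between the sets did not pass the test (Tph2 1.86, adjusted p 0.669; Tph1 -3.21, adjusted p 0.59).

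Few lower genes were called in the A485 set. Of the 58 genes called lower in the nifuroxazide set, Gstm1 alone was called lower in the A485 set, which is 1.72% of the 58 and 5.88% of the 17 that were tested in both. The log2 fold change there was negative for 41 of the 58, with a median of -0.28. Chga had -0.15 (adjusted p 0.811), Cpe -0.28 (adjusted p 0.365) and Ucn3 -0.38 (adjusted p 0.385) in the A485 set. Ins2 was called lower there, at 388491 and 262686 CPM with maternal serum and 600406 and 597362 CPM with normal serum (-0.88, SE 0.14, adjusted p 0.0141).

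The difference between the 2 serum effects was tested directly over both sets. Of 13733 genes, 1 differed (0.00728%), lower (0.00728%), and 0 were higher (0%). At an unadjusted p of 0.05, 959 differed, and DESeq2 called 42 higher and 32 lower. The 1 gene was Pappa2, whose serum effect in the nifuroxazide set minus that in the A485 set was -5.63 (SE 0.66, adjusted p 0.0389). In the A485 set it had 26.1 and 8.43 CPM with maternal serum and 10.4 and 9.80 CPM with normal serum (0.77, adjusted p 0.688). The normal-serum libraries of the nifuroxazide set thus stood apart from the other 6. Pappa2 was not called without normal-serum replicate 1 or 2 of either set, and the number of calls was 2, 0, 0 and 3 without normal-serum replicates 1 and 2 of the nifuroxazide set and 1 and 2 of the A485 set. It was 2 without either maternal-serum replicate of the nifuroxazide set, 10 without maternal-serum replicate 1 of the A485 set and 3 without its replicate 2. Prlr differed by 0.97 (adjusted p 0.307), Txnip by -2.41 (adjusted p 0.101) and Myc by 3.35 (adjusted p 0.171).

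**Figure D5:**
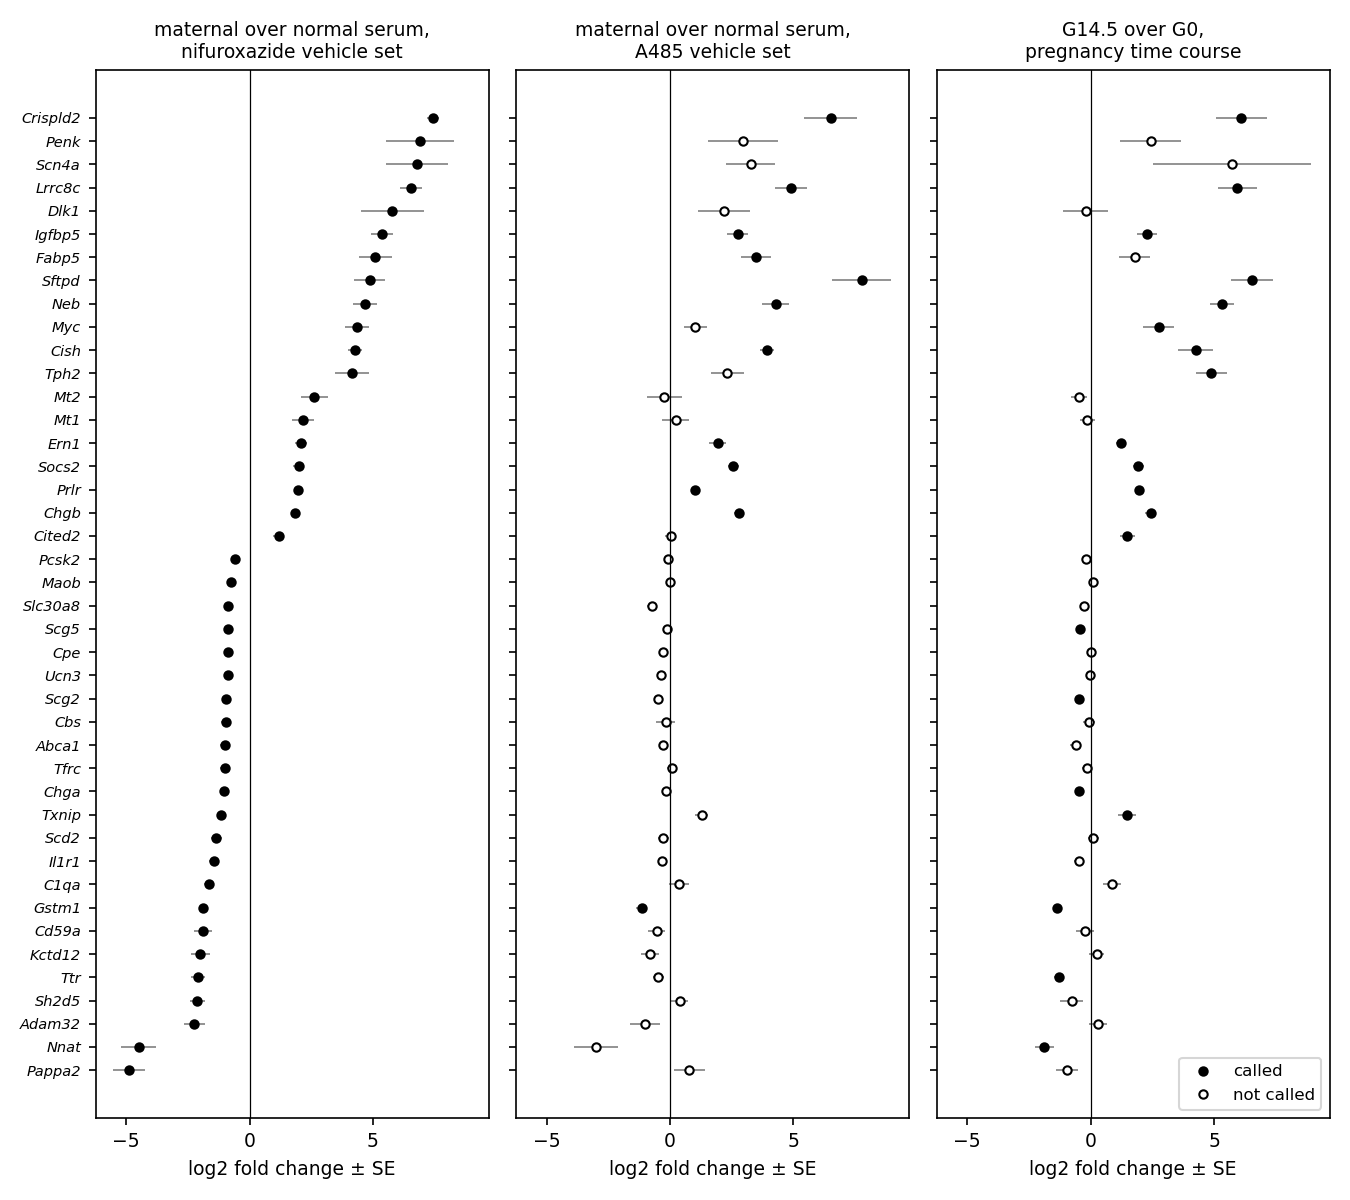
Log2 fold change with its SE of named genes called in the nifuroxazide vehicle set, in that set (left), in the A485 vehicle set (middle) and at G14.5 over G0 (right); filled points are called in the comparison of the panel. Most lactogen genes at the top lie right of 0 in all 3 panels, while many of the lower genes lie near 0 in the middle and right panels.

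The serum response was set beside gestation itself. At G14.5 against G0, edgeR called 1554 of 15373 genes (10.1%), 916 higher (5.96%) and 638 lower (4.15%). Without G0 replicate 1 it called 920 genes, without G0 replicate 2 it called 775 and without G14.5 replicate 3 it called 924. Of the 80 genes higher with maternal serum, 49 were called higher at G14.5, 0 lower, and 68 had a positive log2 fold change, with a median of 1.46. The 49 are 61.25% of the 80 and 5.38% of the 911 gestation genes tested in both. Of the 58 lower genes, 19 were called lower at G14.5 (32.8% of the 58 and 2.99% of 635), 1 was called higher, and the median was -0.42.

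Prlr and Cish moved by like amounts in the nifuroxazide set and at G14.5. Prlr had 1.96 with maternal serum and 1.97 at G14.5 (adjusted p 1.2e-08). Cish had 4.28 with maternal serum and 4.26 at G14.5 (adjusted p 0.000135). In the A485 set the serum effect was 1.01 for Prlr and 3.92 for Cish. Other genes were less alike in level or change. Crispld2 was at 419 and 527 CPM with maternal serum and at 18.8, 20.5 and 33.3 CPM at G14.5. Igfbp5 had 5.37 with maternal serum and 2.30 at G14.5, and Sftpd had 4.86 and 6.54. Whether these values differ between the settings was not tested. Prlr had 1187, 1007 and 1233 CPM at G14.5 and 243 and 343 CPM at G0. Tph2 rose by 4.89 at G14.5 (adjusted p 3.48e-06), with 20.2, 20.9 and 26.6 CPM at G14.5 and 0.444 and 1.25 CPM at G0. Tph1 reached 88.4, 99.2 and 118.6 CPM at G14.5, against 0.841 and 0.541 CPM at G0, a level that no maternal-serum library came near. Of the 22 lactogen-responsive genes tested in culture, 12 were called higher there and 16 of 23 at G14.5. Entry of proteins into the endoplasmic reticulum had 17 of 22 genes called higher at G14.5 and none in the cultures, and the unfolded protein response had 15 of 22 higher at G14.5 and 1 with maternal serum; whether these counts differ was not tested.

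The 3 lower granule proteins were also called lower at G14.5, by 0.49 for Chga, 0.48 for Scg2 and 0.44 for Scg5. Gstm1 fell by 1.35 at G14.5 (adjusted p 3.48e-06), Nnat by 1.87 (adjusted p 0.00152) and Ttr by 1.29 (adjusted p 1.33e-05). Cpe (0.02, adjusted p 0.977), Pcsk2 (-0.19, adjusted p 0.19), Slc30a8 (-0.28, adjusted p 0.131) and Ucn3 (-0.02, adjusted p 0.98) did not pass the test at G14.5. Txnip went the other way, with a log2 fold change of 1.47 at G14.5 (adjusted p 0.00992), at 178, 265 and 152.8 CPM at G14.5 and 98.4 and 44.8 CPM at G0.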

How the data were processed

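Whole-number read counts per gene and cell were deposited by the authors for each culture set and for gestation. Trimmomatic 0.39, featureCounts 2.0.1 and GRCm38/mm10 are named in the submitters' processing notes; the aligner, annotation, strand setting and treatment of duplicate reads are not stated, so overlapping genes are uncertain. A deposited normalised signal table, scaled to about 100000 a cell with a further factor that is not stated, was used only in limma. Reads are not unique molecules, so cell counts and shares carry more error than counting gives.

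Columns were matched to cells by title and summed per replicate. edgeR 4.0.16 (R 4.3.3; TMM, filterByExpr, quasi-likelihood test, Benjamini-Hochberg adjustment) was fitted to the maternal-serum and normal-serum libraries with vehicle and with 20 µM nifuroxazide, 2 each. The A485 set and gestation were fitted separately, and the difference between the sets in a fit of both. Cells of a culture are not replicates; the tests rest on the spread between replicates that the labels call biological, which may be technical since their sources are not described. The fits were tested on simulated counts.

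Named genes were a fixed set of 14, the 10 largest rises and falls at a mean of at least 10 CPM without overlap, and up to 4 called members of each list. The members and lists were chosen with earlier results of these data known. No 2 cells of a table had identical counts. The main fits did not pair the samples by replicate number. DESeq2 1.42.0, limma 3.58.1, other scalings and filters, and leaving out each library were the alternatives. Coordinates are from GENCODE (GRCm38), upstream bases from RefSeq (GRCm38.p6). Some genes that the rule selects are not reported here.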

Additional observations from a re-analysis of the deposited data

Results flagged for a closer look

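Pappa2 was the 1 gene whose serum effect differed between the nifuroxazide and A485 vehicle sets in the direct test, with a log2 difference of -5.63 (SE 0.66; edgeR's quasi-likelihood test, adjusted p 0.0389). The effect was -4.87 in the nifuroxazide set and 0.77 in the A485 set, and the call was lost when any 1 of the 4 normal-serum libraries was left out.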

How the results depend on the processing

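The calls for maternal against normal serum depended on the filter and the tool. Without a filter on low counts 445 genes were called, by the DESeq2 Wald test 415, and by limma on the deposited normalised values without a filter 60, of which 47 were higher. With 1 library left out the count was between 67 and 160. In the A485 set 492 were called without a filter, 354 by DESeq2 and between 43 and 207 with 1 library left out. The difference between the sets gave 204 without a filter, 74 by DESeq2 and between 0 and 10 with 1 library left out. Gestation gave between 775 and 2027 with 1 library left out. Of the 44 called named genes, 11 stayed called under all alternatives run: C1qa, Chgb, Cish, Crispld2, Gstm1, Igfbp5, Lrrc8c, Pappa2, Prlr, Scg5 and Sftpd. None of the 44 changed direction. The cause of these shifts was not tested.

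Deviations of same-numbered replicates correlated at 0.0096 to 0.064 between groups of the nifuroxazide set, so no pairing by number was seen there. This correlation over all genes cannot show whether same-numbered replicates shared mice or a batch. It was not computed for the A485 set or gestation. With the replicate block the A485 count was about 1.4e+02 and the difference gave 7; the block moved no other count by over 1.5 times.

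Tph2 had a log2 fold change of 3.87 to 4.48 with 1 library left out, and was not called at 3.87, without normal-serum replicate 1. Low genes had smaller values by limma on the normalised values plus a pseudocount of 1: Tph2 was 1.47 there and 3.19 with a pseudocount of 0.1, and the lowest values over all alternatives were 1.45 for Lrrc8c and 1.08 for Neb. Values near 0 changed sign. Acss2, at 0.00, was 0.0107 with DESeq2 size factors and with DESeq2, 0.0122 without the insulin genes, 0.0068 with the 2 groups alone, 0.031 and 0.0375 by limma at pseudocounts of 1 and 0.1, 0.0539 without the 2 Mki67 cells and between -0.061 and 0.053 with 1 library left out. With 1 library left out Stat3 was between -0.079 and 0.12, Stat5a between -0.063 and 1.25, and Stat5b between -0.23 and 0.094.

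With 2 libraries a group and 31 to 37 cells a library, for 10 of the 80 higher genes 1 cell held over 50% of a library's reads.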

Other observations

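Several called genes outside the named set were chosen after their values were seen. Gatm, which makes the creatine precursor, had 83.9 and 69.95 CPM with maternal serum, against 13.9 and 11.8 CPM with normal serum (2.58, adjusted p 4.27e-05). Slc40a1, the iron exporter ferroportin, had 87.6 and 78.2 CPM with maternal serum, against 20.9 and 20.9 CPM with normal serum (1.99, adjusted p 0.000374). Enpp2, the enzyme autotaxin, had 586 and 545 CPM with maternal serum, against 191 and 221 CPM with normal serum (1.46). Cd79b, a subunit of the B-cell receptor, had 8.59 and 28.7 CPM with maternal serum, against 0.0597 and 0.0822 CPM with normal serum (7.98). Ptprc, a gene of all leukocytes, was at 0 in all 4 libraries. Cd79b (chromosome 11, 106311341 to 106314762) lies near Scn4a (106318592 to 106353288) and Ern1 (106394650 to 106487852), all on the minus strand and all called higher. Whether these neighbours rose separately was not tested. The receptor genes Gcgr, for glucagon (-1.0), and Insrr, related to the insulin receptor (-1.09), were lower with maternal serum; neither was called without normal-serum replicate 2 (adjusted p 0.39 and 0.192) or maternal-serum replicate 2 (0.114 and 0.087), and Gcgr not without maternal-serum replicate 1 (0.105).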
